A study of Mus musculus with 26 samples.

Results

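Krüppel-like factor 4 (KLF4) is a zinc finger transcription factor of the mouse embryonic stem cell (mESC) pluripotency network. It binds GC-rich elements whose core reads GGGTGTGG or GGGCGTGG, the latter holding a CpG that can be methylated. Its zinc fingers carry the contacts with DNA, and the R462A mutant has alanine in place of an arginine there. The comparison described here set peak lists of Klf4-/- mESC that re-expressed R462A KLF4 against lists of Klf4-/- mESC without KLF4. Its members were the regions held by both R462A lists and neither Klf4-/- list (R462A set), by both Klf4-/- lists and neither R462A list (Klf4-/- set), or by all 4 lists (shared set). Overlapping peaks of the 4 lists merged into 27964 union regions, of which 6375 were members. The R462A set held 681 regions (2.44% of the union), the Klf4-/- set 5566 (19.9%) and the shared set 128 (0.458%).

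The study read DNA methylation from the same molecules as chromatin accessibility, CTCF occupancy or KLF4 occupancy, each in separate libraries. These were made by tagmentation with methylated adaptors and bisulfite conversion. All the KLF4 lists came from Klf4-/- mESC of the KH2 strain, with 2 lists per genotype. The rescue lines were populations infected with a lentivirus carrying a doxycycline-inducible Klf4 cDNA, WT or R462A, selected with puromycin, induced with doxycycline and freed of feeders. Whether the Klf4-/- cells also received doxycycline is not given in the sources used here. Nothing says that the lists of a genotype came from separate cultures, so their spread may be technical.

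The label of the R462A lists went against the data and the library names. Their samples are titled as M-ATAC, which is ATAC-seq with methylated adaptors and conversion, while the libraries are named as converted KLF4 libraries. Of the R462A peak regions, 0.457% in replicate 1 and 1.26% in replicate 2 overlapped peaks of both mESC ATAC lists. They are therefore called R462A lists, with no assay given. The Klf4-/- lists came from unconverted KLF4 ChIP-seq, so genotype and conversion cannot be told apart in any difference between either rescue line and the Klf4-/- lists. By the paper's methods, ChIP-seq also used the Nextera transposase and Bowtie2, where converted libraries had methylated adaptors and Bismark. These, and any difference of assay, cannot be told apart from genotype either. The read depth behind each list is not given in the sources used here. The Klf4 gene itself (chr4:55527143-55532466, minus strand) held no peak region within 3 kb in any of the 6 lists, so the lists offered no check of the genotype at the targeted gene.

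Sequences from the GRCm38 reference show what the regions looked like. The R462A set is shown first by regions that held a run of at least 5 TG dinucleotides, in capitals, since most members held such a run. The 3 shown were among the 79 members tied at the lowest p, 1e-12, in both R462A lists, of which only 5 held one. Each was in none of the 8 accessibility lists of mESC, and each had a peak in both WT lists.
R462A TG 1 at chr11:20379522-20379589 (- strand): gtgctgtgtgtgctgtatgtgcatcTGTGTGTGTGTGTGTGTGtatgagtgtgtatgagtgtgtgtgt
R462A TG 2 at chr1:85257248-85257331 (+ strand): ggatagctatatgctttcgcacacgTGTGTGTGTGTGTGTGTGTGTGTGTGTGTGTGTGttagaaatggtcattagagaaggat
R462A TG 3 at chr4:64498254-64498300 (- strand): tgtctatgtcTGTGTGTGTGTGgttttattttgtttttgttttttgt
The whole regions that held TG 1 and TG 3 were intergenic, and that of TG 2 overlapped a coding exon of C130026I21Rik.

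The next sequences show the KLF4 core, in capitals, where members held it. In the R462A set none of the 79 members at the lowest p in both lists held a core. Ordered by the larger of the 2 p-values, with ties by width, the first region with a core was the 157th of 681, and the first 4 such regions are given.
R462A core 1 at chr19:36741201-36741268 (+ strand): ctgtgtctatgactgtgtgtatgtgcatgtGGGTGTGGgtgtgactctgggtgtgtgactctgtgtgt
R462A core 2 at chr8:74880921-74880988 (+ strand): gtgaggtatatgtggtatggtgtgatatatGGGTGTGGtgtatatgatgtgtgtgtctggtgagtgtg
R462A core 3 at chr19:4067280-4067347 (+ strand): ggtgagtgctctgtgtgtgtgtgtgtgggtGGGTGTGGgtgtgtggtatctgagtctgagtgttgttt
R462A core 4 at chr5:147611702-147611769 (+ strand): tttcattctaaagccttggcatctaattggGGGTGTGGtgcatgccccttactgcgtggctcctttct
The region of core 1 lay 4298 bp from the start of Ppp1r3c, and that of core 2 in an intron of Isx. The region of core 3 lay between genes, 7282 bp from Gstp3, and that of core 4 in an intron of Flt1. All 4 cores had the form without a CpG, and the first 3 sat within TG-rich sequence. The Klf4-/- set is shown for contrast. Of its 995 members at the lowest p in both Klf4-/- lists, 163 held a core, and a pair of the wider ones is given.
Klf4-/- core 1 at chr6:145276371-145276438 (- strand): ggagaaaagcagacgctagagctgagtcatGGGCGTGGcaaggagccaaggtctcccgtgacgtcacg
Klf4-/- core 2 at chr8:127257255-127257322 (+ strand): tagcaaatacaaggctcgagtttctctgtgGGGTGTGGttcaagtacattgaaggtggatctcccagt
The former had the CpG form in a region open in all 8 accessibility lists, and the latter lay in an intron of Pard3 in a region open in none. In the shared set, 5 of the 36 members at the lowest p in all 4 lists held a core, and the widest of these lay on the mitochondrial chromosome, in mt-Nd1, and in the noncoding gene Gm26917.
Shared core 1 at chrM:2994-3061 (- strand): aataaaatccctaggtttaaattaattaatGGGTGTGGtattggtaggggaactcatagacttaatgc
Shared core 2 at chr17:39844183-39844250 (+ strand): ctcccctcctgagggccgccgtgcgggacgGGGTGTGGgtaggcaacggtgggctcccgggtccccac

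Before any set was formed, the lists of each genotype were compared. The R462A lists held 7006 and 5544 peak regions, against 8861 and 14263 in the Klf4-/- lists. Median region width was 350 bp in both R462A lists and 450 bp in both Klf4-/- lists. The median -log10 p given by the peak caller was 4.40 in both R462A lists and 4.99 and 4.61 in the Klf4-/- lists. The share of peaks at the lowest p, 1e-12, was 4.32% and 5.22% in the R462A lists and 27.2% and 8.25% in the Klf4-/- lists. On all 4 measures the groups did not overlap. With 2 lists against 2, the exact permutation test (two-sided) cannot go below p = 0.333, and every difference tested between R462A and Klf4-/- lists was at that floor, 0.333 also after Benjamini-Hochberg adjustment over 8 measures. R462A lists were also less alike than Klf4-/- lists. Of the regions in R462A replicate 1, 13.6% overlapped replicate 2, and 17.2% the other way. For the Klf4-/- lists these shares were 66.0% and 40.9%, and for the WT lists 36.4% and 28.9%. R462A replicate 1 shared slightly more of its regions with WT replicate 1 (17.3%), a longer list of 9338 regions, than with its own replicate. By bases shared over all bases covered by either list, the order was the reverse. This ratio was 0.0881 with R462A replicate 2 and 0.0804 with WT replicate 1.

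**Figure D1:**
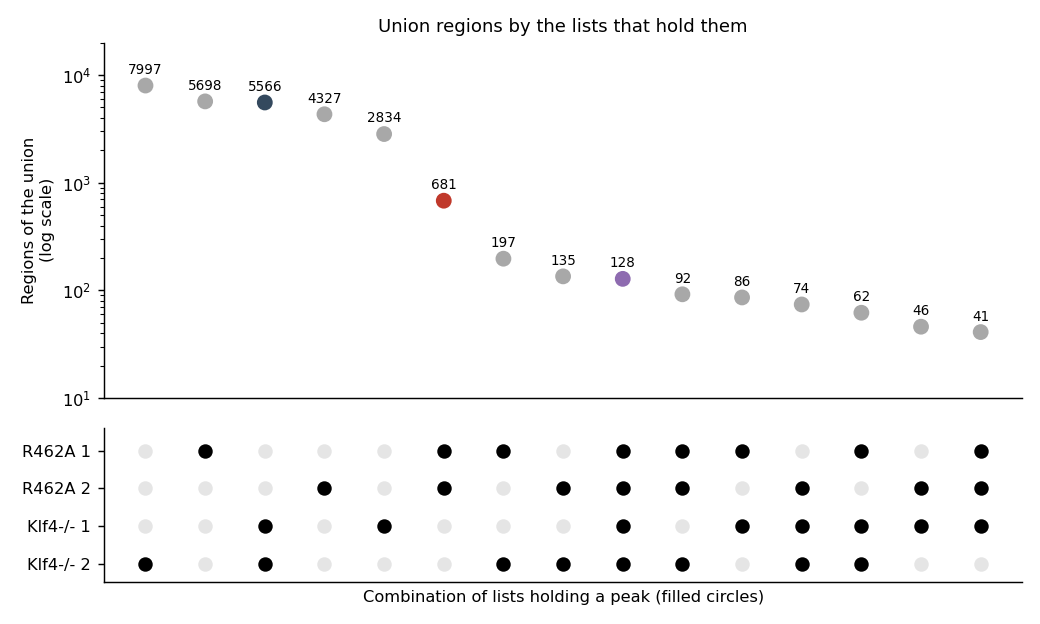
Number of union regions (log scale) for each combination of the 4 lists, marked by filled circles below. The R462A set (red, 681 regions), Klf4-/- set (dark, 5566) and shared set (purple, 128) stand beside 20856 regions held by 1 list.

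Place relative to genes differed between the lists. A transcription start site (TSS) lay within 3 kb of 19.6% and 20.8% of R462A regions and of 39.1% and 33.9% of Klf4-/- regions, a mean difference of -16.3 percentage points (exact permutation p = 0.333). Over all 400-bp windows of the genome the share was 16.5%. R462A regions fell more often in introns, 38.7% and 38.1% against 25.8% and 28.2%. The differences in accessibility were wider. Peaks in both mESC ATAC lists covered 33.3% and 31.1% of Klf4-/- regions, against the R462A shares of 0.457% and 1.26% given above, a mean difference of -31.3 percentage points (exact permutation p = 0.333). Of genome windows, 0.638% overlapped such peaks. These accessibility lists came from mESC without the Klf4 deletion, not from the cells compared. Sites of CTCF, the insulator protein, in both mESC CTCF ChIP-seq lists covered 1.38% and 2.09% of R462A regions and 13.2% and 10.6% of Klf4-/- regions.

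**Figure D2:**
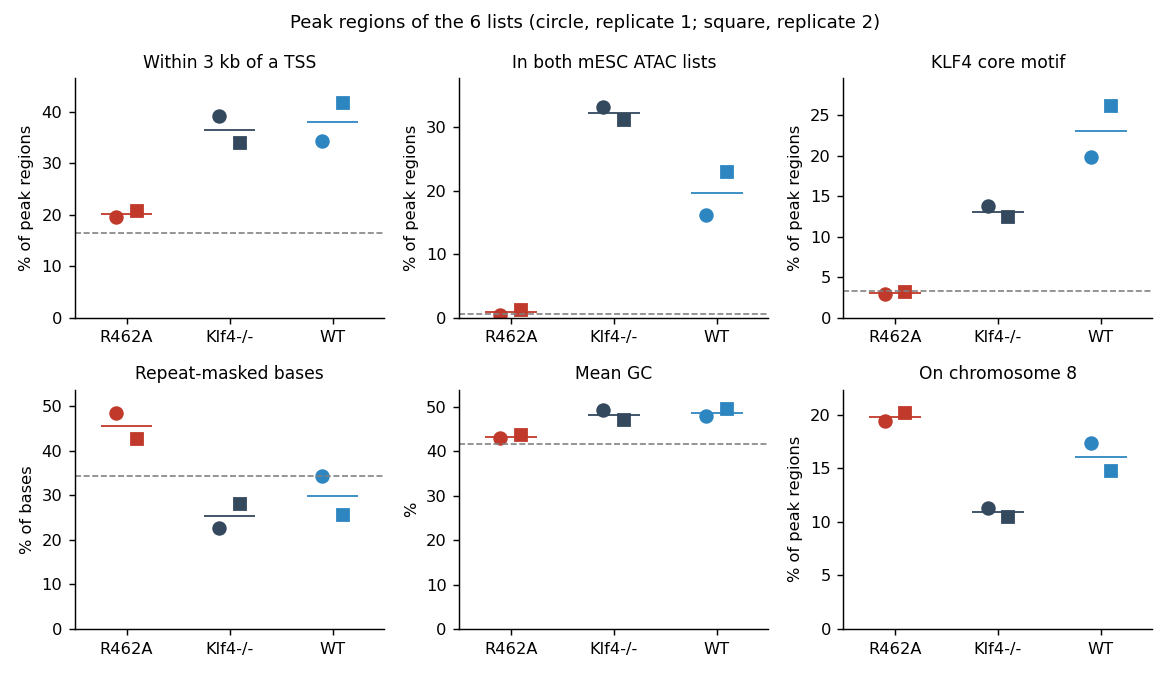
Each panel gives 1 measure, in percent, for the 2 lists of each genotype (horizontal bars, group means; dashed lines, all 400-bp genome windows). R462A lists sit near the windows for ATAC overlap and core motif and above the other genotypes for repeat bases and chromosome 8.

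Sequence content followed the same split. The KLF4 core occurred in 2.85% and 3.19% of R462A regions, 13.8% and 12.4% of Klf4-/- regions and 3.24% of 400-bp windows, with a mean difference of -10.1 percentage points (exact permutation p = 0.333). The core was searched on both strands, and a match says only that the letters are present. For the CpG form GGGCGTGG the shares were 0.471% and 0.613% against 5.99% and 4.88%. Mean GC content was 42.9% and 43.7% in R462A regions and 49.4% and 47.1% in Klf4-/- regions. Repeat-masked sequence made up 48.5% and 42.6% of R462A bases, 22.6% and 28.0% of Klf4-/- bases and 34.3% of the windows (mean difference 20.2 percentage points, exact permutation p = 0.333).

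The lists of Klf4-/- cells re-expressing WT KLF4, which share the titles and library names of the R462A lists, served as the second comparison. A core was found in 19.8% and 26.2% of WT regions, the highest shares of the 3 genotypes, and the CpG form in 11.3% and 15.9%. R462A lists were lower by a mean difference of -20.0 percentage points (exact permutation p = 0.333). Promoter shares in the WT lists were 34.3% and 41.7%, ATAC shares 16.2% and 23.0% and repeat bases 34.3% and 25.6%. Both comparisons use the same R462A lists, so their directions are not independent. Median -log10 p went the other way, with 4.31 and 4.29 in the WT lists, and that order turned when lists of equal size were compared (difference -0.20 against 0.09).

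The 681 regions of the R462A set had a median width of 550 bp and ranged from 300 to 1450 bp. Widths are those of the merged regions, which exceed those of single peaks. In R462A replicate 1 the peaks in the set had a median -log10 p of 4.97, against 4.40 for its peaks in neither set, and in replicate 2 of 4.86 against 4.40. Promoters took 18.1% of the set (95% Wilson interval 15.4 to 21.1, 123 regions), close to the 16.8% of 550-bp windows. Such intervals cover counting error only. Of the 123, 84 lay near the 5′ end of a gene and 39 only near another annotated start. Introns took 41.3% and intergenic sequence 38.8%. The median distance to a TSS was 11363 bp.

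Accessibility in the R462A set was near that of the genome windows. Peaks in both mESC ATAC lists covered 3 of 681 regions, 0.441% (0.150 to 1.29), against 0.760% of 550-bp windows. In all, 670 regions were open in 0 of the 8 lists of ATAC-seq, M-ATAC and unconverted M-ATAC. CTCF sites covered 1.32% of the set and 1.25% of the windows. The core motif occurred in 15 regions, 2.20% (1.34 to 3.60), against 4.44% of the windows, and 2 of them had the CpG form.

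The Klf4-/- set had the opposite profile. Its 5566 regions had a median width of 600 bp. Promoters took 40.2% (38.9 to 41.5) and peaks in both ATAC lists covered 43.4% (42.1 to 44.7). The merged M-ATAC list covered 75.2%, against 1.91% of the R462A set. In all 8 accessibility lists 1847 regions were open, and 1635 were open in none. Fold enrichment of the ATAC peaks at these regions had a median of 6.08 and 6.24 in the 2 ATAC lists, where all ATAC regions had 5.58 and 5.53. The core motif occurred in 16.7% (15.8 to 17.7) against 4.83% of 600-bp windows, and CTCF sites covered 13.7%. These regions were called with the KLF4 antibody in cells without KLF4. Which factor or chromatin feature they mark was not tested.

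**Figure D3:**
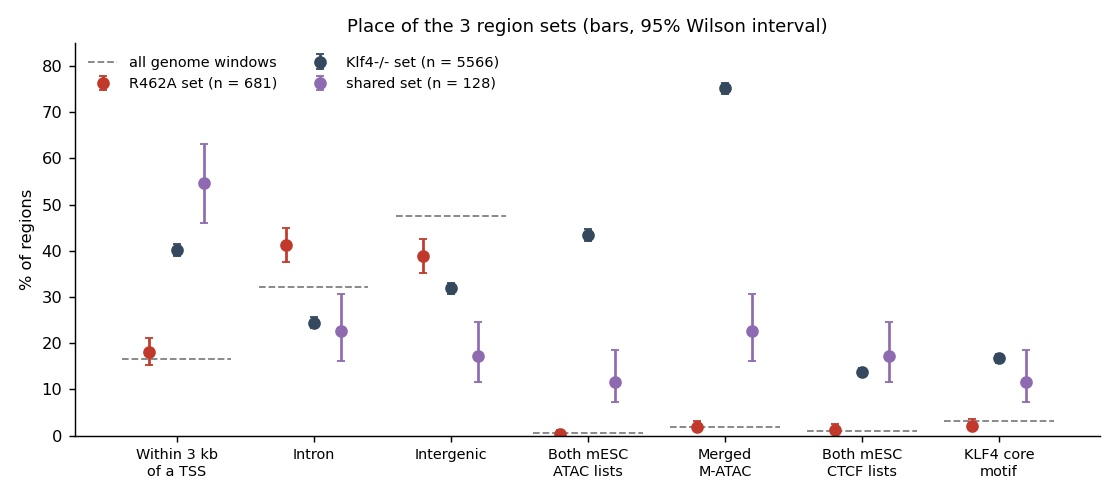
Share of the 3 sets (percent of regions, bars are 95% Wilson intervals) by place, overlap with mESC peaks and core motif, with all 400-bp genome windows dashed. The R462A set lies at 18.1% for promoters and 0.441% for ATAC, the Klf4-/- set at 40.2% and 43.4%.

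The shared set was small and clustered. Its 128 regions had a median width of 850 bp, and 41 of them lay within 100 kb on chromosome 11, starting between positions 3126851 and 3198751 over Sfi1, which encodes a centrosomal protein, and Drg1. Each of the 6 lists held between 57 and 61 peak regions there. A further 3 regions were on the mitochondrial chromosome. Promoters took 54.7% (46.1 to 63.0) of the set, and 33.3% (24.0 to 44.1) of the 81 regions outside the densest stretches and the mitochondrial chromosome. Peaks in both ATAC lists covered 11.7% (7.23 to 18.4) and the core motif occurred in 11.7%. Most shared regions, 110 of 128 (85.9%), were also in both WT lists. In R462A replicates 1 and 2, 68.3% and 76.4% of the peak regions in this set had the lowest p, and in Klf4-/- replicates 1 and 2, 67.4% and 29.5%.

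Overlap with the WT lists, which the sets did not use, differed between the sets. Both WT lists held 194 regions of the R462A set, 28.5%, 1 WT list held 238 (34.9%) and no WT list held 249 (36.6%). Of the Klf4-/- set, 8.86% was in both WT lists and 82.9% in none. Among regions held by a single list, 1.97% (R462A) and 4.15% (Klf4-/-) were in both WT lists. Overlap with WT was not particular to the R462A set. Regions held by both R462A lists and 1 Klf4-/- list were in both WT lists at higher shares. These were 31.5% of 92 regions with Klf4-/- replicate 2 and 43.9% of 41 with replicate 1. The R462A and WT lists also share the conversion that the Klf4-/- lists lack, and its part in these overlaps was not tested. The 249 regions found with R462A and in neither other genotype were open in 0 of the 8 accessibility lists. This allows a share of up to 1.20% (3 counts of the total, where the 95% Wilson upper bound is 1.52%). That limit lies above the 0.760% of 550-bp windows in both ATAC lists, and no window share was computed for the 8 lists together. Of regions held by a single R462A list, 98.8% were also open in none, so the 0 does not set the 249 apart. The promoter share of the 249 was 14.1% and their motif share 2.81%.

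Most members of the R462A set held repeats. Repeat-masked bases made up 62.4% of the set, against 23.8% of the Klf4-/- set and 36.9% of the shared set, and 69.6% of R462A regions were repeat over most of their length. High repeat shares were not particular to the set. Regions held by both R462A lists and 1 Klf4-/- list had 66.6% (92 regions, with Klf4-/- replicate 2) and 53.0% (41 regions, with replicate 1). A run TGTGTGTGTG, or its complement, occurred in 350 of 681 regions, 51.4% (47.6 to 55.1). It occurred in 9.86% of the Klf4-/- set (9.11 to 10.7), 25.8% of the shared set and 9.49% of 550-bp windows. This motif was chosen after the values were seen. Among single lists the run was found in 42.6% and 33.5% of R462A regions, 11.4% and 13.4% of Klf4-/- regions and 27.6% and 16.9% of WT regions. The R462A mean exceeded the Klf4-/- mean by 25.7 percentage points and the WT mean by 15.8 (exact permutation p = 0.333 for each). Within the R462A set the run was in 29.4% of the regions held by both WT lists, 55.0% of those held by 1 and 65.1% of those held by none. The central 32 bases occurred at 2 or more places of the reference in 25.7% of the R462A set (22.6 to 29.1), 6.04% of the Klf4-/- set and 25.8% of the shared set. Single lists stood at 12.3% and 11.1% (R462A), 5.70% and 7.75% (Klf4-/-) and 8.92% and 6.83% (WT). For this measure no share over genome windows was computed. The part of read placement in these shares was not tested.

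**Figure D4:**
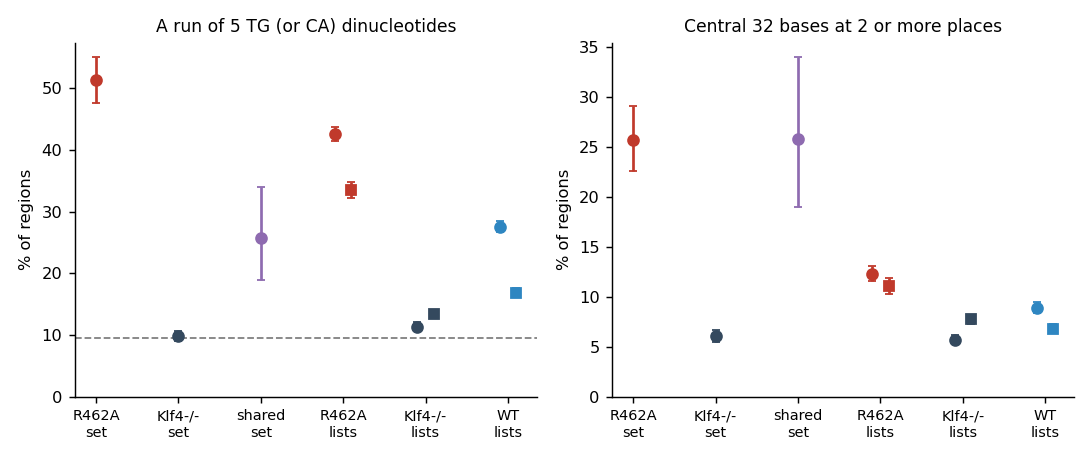
Share of regions, in percent with 95% Wilson intervals, that hold a run of 5 TG or CA dinucleotides (left; dashed, 550-bp genome windows) and whose central 32 bases recur in the reference (right). Circles are sets or replicate 1 and squares replicate 2; the R462A set reaches 51.4% and 25.7%.

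Of the 79 members of the R462A set at the caller's lowest p in both lists, 51 (64.6%) were repeat over most of their length, against 69.6% of the whole set. Open in 0 of the 8 accessibility lists were 71 (89.9%, against 98.4% of the set). In both WT lists were 76 (96.2%, against 28.5% of the set). The 5 widest, taken because p did not order them, included chr13:74528451-74529900, an intergenic region of 1450 bp that was 99.3% repeat, and chr10:3115951-3117200, an intergenic region that was 99.2% repeat. A pair overlapped coding exons of the predicted genes Gm10715 (chr9:3037101-3038450) and Gm10717 (chr9:3029151-3030450). This start of chromosome 9 held 16 members within 100 kb, the densest stretch of the set. The remaining one was chr4:118547551-118548850, 3507 bp from Tmem125, with 62.5% GC and 1.85% repeat. All 5 were also in both WT lists. Of the 995 members of the Klf4-/- set tied at the lowest p, 499 were open in all 8 accessibility lists and 137 in none. The widest included chr6:145275801-145277000 between genes and chr1:136695751-136696900 in an exon of the noncoding gene Platr22.

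Chromosome 8 held an excess of regions in all 6 lists, which was examined after its values were seen. The R462A lists placed 19.4% and 20.2% of their regions there, the Klf4-/- lists 11.3% and 10.5% and the WT lists 17.3% and 14.7%. Regions per Mb on chromosome 8 were 4.45 and 4.61 times the autosome median in the R462A lists, 2.38 and 2.17 times in the Klf4-/- lists and 3.83 and 2.96 times in the WT lists. The mESC ATAC lists stood at 1.00 and 0.996 times. All 12 bins of 10 Mb on chromosome 8 held at least 29 regions in each R462A list. Of the R462A set, 158 regions (23.2%, 20.2 to 26.5) were on chromosome 8, against 9.54% of the Klf4-/- set. Regions held by both R462A lists and 1 Klf4-/- list had higher shares there. These were 34.8% of 92 regions with Klf4-/- replicate 2 and 39.0% of 41 with replicate 1. Chromosome copy number was not measured in these lists, and its part was not tested. Without chromosome 8, the R462A set kept 523 regions, with 0.574% in both ATAC lists, 19.9% at promoters and 62.2% repeat bases. The X chromosome held few regions, with 14 and 16 regions in the R462A lists, 33 and 59 in the WT lists and 128 and 271 in the Klf4-/- lists. Per Mb this was 0.035 and 0.050 times the autosome median in the R462A lists and 0.059 and 0.076 times in the WT lists. The Klf4-/- lists stood at 0.230 and 0.298 times, the mESC ATAC lists at 0.399 and 0.413 and the mESC CTCF ChIP-seq lists at 0.298 and 0.343.

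**Figure D5:**
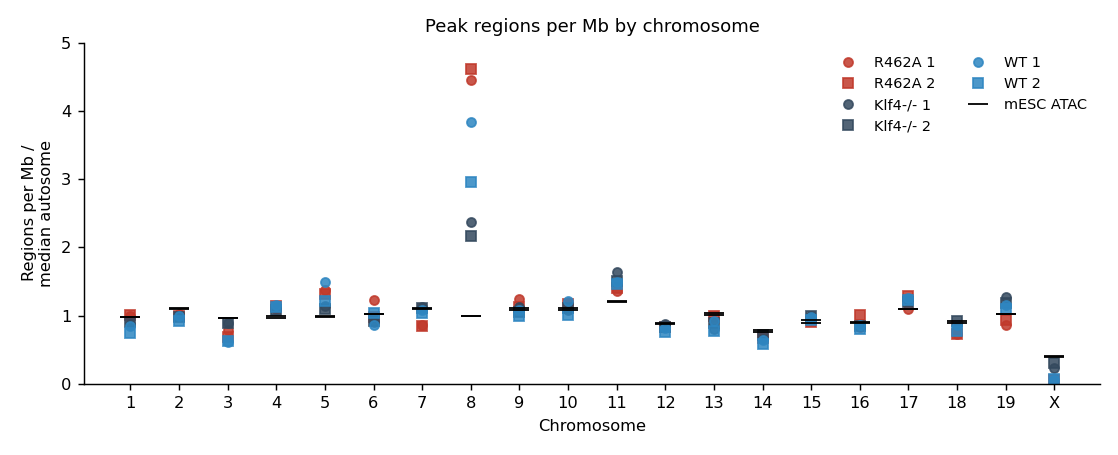
Peak regions per Mb on each chromosome, divided by the median over autosomes, for the 2 lists of each genotype and the 2 mESC ATAC lists (dashes). Chromosome 8 stands at 4.45 and 4.61 in the R462A lists and at 2.38 and 2.17 in the Klf4-/- lists; the ATAC lists are at 1.00 and 0.996.

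Genes near the members were described with gene lists for mESC. Of all protein-coding genes with a TPM value, 0.342% had a TSS within 3 kb of the R462A set, 8.67% of the Klf4-/- set and 0.0972% of the shared set. At the R462A and shared shares, a count of 0 in lists of this size says nothing about their genes. Of 35 genes of the pluripotency network, 0 had a TSS within 3 kb of the R462A set, 17 within 3 kb of the Klf4-/- set and 0 near the shared set. Those near the Klf4-/- set included Pou5f1, which encodes OCT4, Esrrb, Zfp42, Tfcp2l1, Sall4, Nodal, Lefty1 and Dppa3. At Zfp42 the region was chr8:43306701-43307400, open in all 8 accessibility lists, with -log10 p of 12 in both Klf4-/- lists and 1 core motif. Both WT lists also held it. At Pou5f1 the region lay 2868 bp from the nearest start and was open in none, with -log10 p of 5.12 and 4.81. At Esrrb, an orphan nuclear receptor gene, 2 regions lay in introns and both were open in all 8 lists. Single lists gave 2 and 0 pluripotency genes for R462A, 18 and 21 for Klf4-/- and 7 and 15 for WT. Of 26 Klf and Sp family genes, Sp7, a regulator of bone formation, was near the R462A set, where its region was 100% repeat. Klf3, Klf11, Klf13 and Sp1 were near the Klf4-/- set. Of 16 DNA methylation enzymes, Dnmt3l, a cofactor of de novo methylation, and Tet1, a 5-methylcytosine oxidase, were near the Klf4-/- set and 0 near the other sets. None of 29 lineage regulators was near any set.

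Expression in mESC, from 1 RNA-seq table of cells without the deletion, differed between the sets, given as a description. The 74 protein-coding genes near the R462A set had a median of 1.81 TPM (transcripts scaled to a common total), against 19.5 TPM for 1873 genes near the Klf4-/- set, 1.86 TPM for 21 near the shared set and 2.77 TPM for all 21607. Being wild type, these cells expressed Klf4 at 270.4 TPM, beside Pou5f1 at 656.9 TPM. The most expressed gene near the R462A set was Gapdh, a glycolytic enzyme, at 6547 TPM. Its region lay 6667 bp from the 5′ end of the gene and 2727 bp from another annotated start. It was followed by Dpy30, a subunit of histone methyltransferase complexes, at 215.8 TPM, then the corepressor gene Sin3b, Pisd, an enzyme of phospholipid synthesis, and the bromodomain gene Brd3. The Dpy30 region lay 1007 bp from the 5′ end, but those of Sin3b, Pisd and Brd3 lay 29966, 47346 and 29612 bp away, near other annotated starts. None of these 5 regions was in any accessibility list. Near the Klf4-/- set the leaders were the ribosomal protein genes Rplp1, at 9680 TPM, and Rps26, then Ftl1, Dppa5a and Hsp90aa1. Near the shared set Carm1, an arginine methyltransferase gene, led at 85.5 TPM, and its region was open in all 8 lists.

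Methylation could be read at members only inside merged M-ATAC peaks of mESC, with at least 5 reads at a CpG cytosine. The values therefore describe the members that overlapped such peaks, not the sets as a whole. In the R462A set 75 cytosines in 11 regions met this, and 275 of 1517 reads were methylated, 18.1% (16.3 to 20.1). In the Klf4-/- set 66080 cytosines in 3721 regions gave 1.64% (1.61 to 1.66), and in the shared set 354 cytosines in 26 regions gave 10.1% (9.62 to 10.6). All M-ATAC peaks stood at 1.87%. These intervals treat pooled reads as separate draws and do not cover the spread between cytosines or regions. The R462A value rests on 11 of 681 regions, and 84 of its 1517 reads, 64 of them methylated, came from the chr4 region near Tmem125.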

How the data were processed

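Peak lists were made by the authors with PeaKDEck from subsampled reads, as the library names state, and deposited as p-values per peak on mm10. ChIP-seq reads were aligned with Bowtie2 and converted reads with Bismark. The read number is not given in the sources used here. The submitters' processing notes name Bismark 0.18.1, Trim Galore 0.4.4 and SAMtools 1.3. ATAC, M-ATAC and CTCF peaks were deposited with a fold enrichment ratio, cytosines with methylated and unmethylated read counts and a percent, and RNA-seq as TPM. Overlapping peaks (1 bp) were merged within each list, then over the 4 lists. Regions were annotated with GENCODE M21 (TSS within 3 kb) and sequences read from GRCm38 (RefSeq). Groups were compared over lists by exact permutation, and shares given 95% Wilson intervals (scipy 1.17.1). Functions were tested on simulated lists. Regions named are the 5 with the smallest larger p per set (ties by width, then position), those near the gene lists and the 5 genes of highest TPM. Sequences are the first with a core in that order, leaving out chromosome 18. Members, lists and rules were chosen with earlier results of these data known. The replicate difference in presence over the union correlated at 0.0249 between the R462A and Klf4-/- lists. This cannot decide whether same-numbered lists were paired, because 20856 of the 27964 union regions were held by 1 list. Alternatives covered overlap, list size, p, left-out lists, promoter width and accessibility lists. No column of unmapped sample values was used.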

Additional observations from a re-analysis of the deposited data

How the results depend on the processing

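The 8 differences between R462A and Klf4-/- lists kept their direction in all 72 alternatives run. The smallest exact permutation p was 0.333, and none could pass a threshold with 2 lists per group. The alternatives without 1 list could not reverse, because the 2 groups did not overlap on any of the 8 measures. The count of 72 therefore includes alternatives whose direction was fixed in advance. Under the replicate block (lists paired by number) the differences were, by construction, the same, such as -31.3 percentage points for ATAC and -16.3 for promoters, each at p = 0.5, the smallest an exact sign-flip test of 2 pairs allows. Against the WT lists, 6 of 7 differences kept their direction with lists of equal size, and that of the median -log10 p reversed (-0.20, exact permutation p = 0.667). With 1 list left out, fewer lists had to agree, and the R462A set ranged from 723 (without Klf4-/- replicate 1) to 6388 regions (without R462A replicate 2; 5016 without R462A replicate 1). The Klf4-/- set then ranged from 5627 to 13567 (without Klf4-/- replicate 1; 8420 without replicate 2), and the regions shared by the remaining lists from 167 to 221 (without Klf4-/- replicate 1; 204 without R462A replicate 1). With lists cut to 5544 regions the Klf4-/- set held 3088 and the shared set 83, and with a stricter p the Klf4-/- set held 3227. Promoters within 1 kb took 7.64%, 28.0% and 34.4% of the R462A, Klf4-/- and shared sets, and the merged M-ATAC list covered 1.91%, 75.2% and 22.7%. With stretches covered by both lists of a genotype, which are narrower, motif shares were 1.15%, 14.4% and 6.62%. Leaving out the densest stretches and the mitochondrial chromosome, an alternative chosen after seeing the data, took the shared set's promoter share to 33.3%. The unknown depth of the subsampled lists limits every count of regions: a region missing from a list was not called at that depth, which does not show that it was unbound.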
